A study of Mus musculus with 8 samples.

Results

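The genes described here are 40 genes of fatty acid and cholesterol metabolism, chosen by name, and the data are the chromatin regions that the deposited count table assigns to them. Of the 40 genes, 39 had at least 1 region and Fads2 had none, which gave 109 distinct regions of 46624 in the table. The assay was ATAC-seq, which reads where a transposase can enter open DNA and insert sequencing adapters. All mice were C57BL/6 and carried a red fluorescent protein (RFP) reporter in Foxp3, the gene of the factor that defines regulatory T cells (Tregs). The 8 libraries form 4 groups of 2, each library from sorted cells pooled from 3 mice: RFP-positive Tregs from spleens of males, RFP-positive Tregs from visceral adipose tissue (VAT) of males, the same cells from VAT of females, and CD4+ T cells without RFP from VAT of males. Both libraries from spleen are labelled as male, where the series' design names spleen of both sexes. Regions of the Y-linked genes Eif2s3y, Uty and Ddx3y summed to 40.2 and 51.7 CPM (counts scaled to the size of the library) in these libraries, 34.9 to 47.2 CPM in the other male libraries, and 0.703 and 0.12 CPM in the female libraries. The labels give no age and no treatment. Male VAT Tregs were compared with each of the other groups, so the 3 comparisons share the same male VAT Treg libraries and are not independent.

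Fatty acids are built from acetyl-CoA, lengthened by elongases, given double bonds by desaturases, and either esterified into glycerides and cholesteryl esters or burned in mitochondria. Cholesterol is built from the same acetyl-CoA, and the SREBP factors, held back by Insig proteins and escorted by Scap, switch on genes of both pathways when sterols are low. Tregs of visceral fat live among lipid-laden adipocytes and are known for a lipid-handling program under the nuclear receptor PPARγ.

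Of the 40 genes, 34 had an entry among 44 start windows of RefSeq (GRCm38.p6, the build of the files), and Abcg1, Fads1, Fdft1, Scd1, Scd2 and Sqle had none. In the 250 bases before each start, 4 motifs were searched on both strands. The core of a sterol regulatory element, TCACNCCAC, was found in 2 of the 44 windows and in 1.05% of all 32817 windows. CCAAT was found in 18 and in 33.8%, the GC box GGGCGG in 27 and in 32.7%, and the E-box CACGTG in 7 and in 6.02%. A match describes letters in a window and is not a binding site. The stretches below lie before the annotated gene, 5′ to 3′, with matched letters in capitals (ATTGG and CCGCCC are CCAAT and GGGCGG read on the other strand). No matches overlapped within these stretches. Elongases come first, since all 3 regions called higher than in spleen were at Elovl5 and Elovl6. The Elovl6 stretch holds no match, overlaps the gene Gm35986, and lies 0.763 kb or more from the nearest region of Elovl6.
Elovl5 (chr9:77917115-77917364, plus strand): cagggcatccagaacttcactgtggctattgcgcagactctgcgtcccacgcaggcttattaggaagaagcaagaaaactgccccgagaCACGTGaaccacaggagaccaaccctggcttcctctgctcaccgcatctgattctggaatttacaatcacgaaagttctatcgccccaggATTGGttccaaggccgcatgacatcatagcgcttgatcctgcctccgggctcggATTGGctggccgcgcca
Elovl6 (chr3:129532136-129532385, plus strand): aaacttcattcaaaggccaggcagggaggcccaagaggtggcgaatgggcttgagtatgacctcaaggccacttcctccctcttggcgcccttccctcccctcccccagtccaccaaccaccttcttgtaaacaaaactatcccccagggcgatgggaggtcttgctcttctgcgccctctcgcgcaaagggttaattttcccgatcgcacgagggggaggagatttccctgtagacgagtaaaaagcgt
Slc27a1 and Lpin2 follow: Slc27a1 has the called region that lies over a start, and Lpin2 has a called region further inside the gene.
Slc27a1 (chr8:71568621-71568727, plus strand): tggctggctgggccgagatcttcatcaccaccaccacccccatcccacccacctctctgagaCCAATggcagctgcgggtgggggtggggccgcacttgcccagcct
Lpin2 (chr17:71183282-71183531, plus strand): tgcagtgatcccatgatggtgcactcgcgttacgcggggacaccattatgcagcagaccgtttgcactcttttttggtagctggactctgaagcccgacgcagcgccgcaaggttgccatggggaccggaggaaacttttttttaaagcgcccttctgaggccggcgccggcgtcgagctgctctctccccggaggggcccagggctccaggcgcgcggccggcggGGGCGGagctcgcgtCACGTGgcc
Hmgcs1 and Insig1 are sterol-controlled genes with high accessibility at the start. Hmgcs1 holds the sterol regulatory element match, TCACCCCAC, and the other match was in a window of Acsl1 that no region of Acsl1 overlaps. The Insig1 stretch also lies inside the long gene Gm35223.
Hmgcs1 (chr13:119690101-119690350, plus strand): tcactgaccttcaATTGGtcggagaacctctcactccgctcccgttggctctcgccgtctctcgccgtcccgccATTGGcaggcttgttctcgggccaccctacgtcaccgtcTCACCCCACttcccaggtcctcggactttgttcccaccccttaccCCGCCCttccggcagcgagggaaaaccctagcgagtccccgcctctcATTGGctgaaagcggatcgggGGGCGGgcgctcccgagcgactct
Insig1 (chr5:28071162-28071411, plus strand): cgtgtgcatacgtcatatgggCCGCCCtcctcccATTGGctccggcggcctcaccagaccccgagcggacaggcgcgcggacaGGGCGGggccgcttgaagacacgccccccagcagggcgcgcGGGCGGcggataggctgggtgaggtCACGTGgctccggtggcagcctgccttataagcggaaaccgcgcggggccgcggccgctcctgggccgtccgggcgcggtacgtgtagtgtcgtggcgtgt
Hadha and Hadhb, the subunits of the mitochondrial trifunctional protein, are read in opposite directions from 1 shared region, and the stretch before Hadhb lies between their starts.
Hadhb (chr5:30155003-30155252, plus strand): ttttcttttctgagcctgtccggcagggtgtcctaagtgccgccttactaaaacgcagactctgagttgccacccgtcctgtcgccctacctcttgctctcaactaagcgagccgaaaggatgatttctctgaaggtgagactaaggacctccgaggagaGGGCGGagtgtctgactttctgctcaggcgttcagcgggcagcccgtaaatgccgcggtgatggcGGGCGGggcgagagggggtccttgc

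Counts used per library ran from 5724685 to 15805270, and mitochondrial counts made up 22.6 to 34.1% of the table. Male VAT Treg replicate 1 had 5.63% of all counts in short regions (under 1000 bp), where the other 7 libraries had 3.64 to 4.42%. Results at the 40 genes that lose their call without this library are given with the value without it. For other lipid genes, described last, only the number of such calls is given. What sets the share was not tested. Regions of Foxp3, an X-linked gene, summed to 39.6 CPM in the CD4 cells, 60.4 in spleen, 69.3 in male VAT and 110.8 in female VAT Tregs (means of 2). The sums for Ikzf2 were 155.7 CPM in male VAT and 152 in female VAT Tregs, and those for Il2ra 65.9 and 54.8. For Tnfrsf18 they were 132.7 in male and 122.8 in female VAT Tregs, and for Ctla4, which went the other way, 116 and 122.9. In CD4 cells and spleen Tregs the sums were 136 and 148.5 CPM for Ikzf2, and 83.25 and 90.98 for Tnfrsf18. Those for Ctla4 were 83.1 and 110.6. Il2ra had 59.1 CPM in CD4 cells, above the 54.3 in spleen Tregs and 54.8 in female VAT Tregs. Of 53 regions at 5 Treg marker genes, 19 were called higher in male VAT Tregs than in CD4 cells and 1 lower (5.18% and 2.51% of all regions). Against spleen 7 were higher and 1 lower (4.64% and 2.09% of all regions), and against females 1 and 3 (2.04% and 1.21%). Adipocyte markers had regions at 5 of 6 genes (Lep had none), with summed CPM of 99.6 and 112.3 in spleen, 79.8 and 84.8 in male VAT Treg, 100.9 and 104.1 in female and 100.7 and 101.3 in CD4 libraries, and none of their 12 regions was called higher in male VAT Tregs in any comparison, while 2 were called lower than in spleen. Among the markers of B cells, myeloid cells, CD8 and NK cells, and stromal and endothelial cells no region was called higher either, and 1 B cell region (against CD4 cells) and 1 myeloid region (against females) were called lower. T cell markers had 24 regions, of which 2 were lower than in spleen and 4 lower than in CD4 cells. Over all regions, 2.09% were called lower than in spleen, 1.21% lower than in females and 2.51% lower than in CD4 cells. In bulk libraries, more cells with an open region and a more open region per cell cannot be told apart.

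The 109 regions fall into 43 short ones under 1000 bp (median 135 bp) and 66 long ones (median 3699 bp). By position, 28 lay over a RefSeq start, 45 elsewhere in the gene and 36 outside it. Elovl6 had the most regions, 10, and 13 genes had 1 each. Each region was tested with edgeR's quasi-likelihood F test fitted to all 45709 regions that passed a filter on low counts, which all 109 passed, and was called at a Benjamini-Hochberg adjusted p under 0.05. Log2 fold changes carry their standard error after the ± sign, and n is 2 libraries per group throughout. The p-values measure the spread between such pooled libraries.

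Most of these genes did not differ detectably between the groups: 30 of the 39 had no called region in any comparison, and the differences that passed the test were at 11 regions of 9 genes. Against spleen Tregs, male VAT Tregs had 3 of 109 regions called higher and 3 lower, where 4.64% of all regions were called higher and 2.09% lower. Against female VAT Tregs it was 1 higher and 1 lower (2.04% and 1.21% of all regions), and against CD4 cells 4 higher and 2 lower (5.18% and 2.51%). Those counts are near the background in each comparison. At an unadjusted p under 0.05 the counts were 13 higher and 17 lower against spleen, 6 and 16 against females, and 12 and 7 against CD4 cells. The share of all regions at that unadjusted threshold was not counted. These counts, and those given by role below, therefore have no background beside them and are not read as a difference of these genes.

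**Figure D1:**
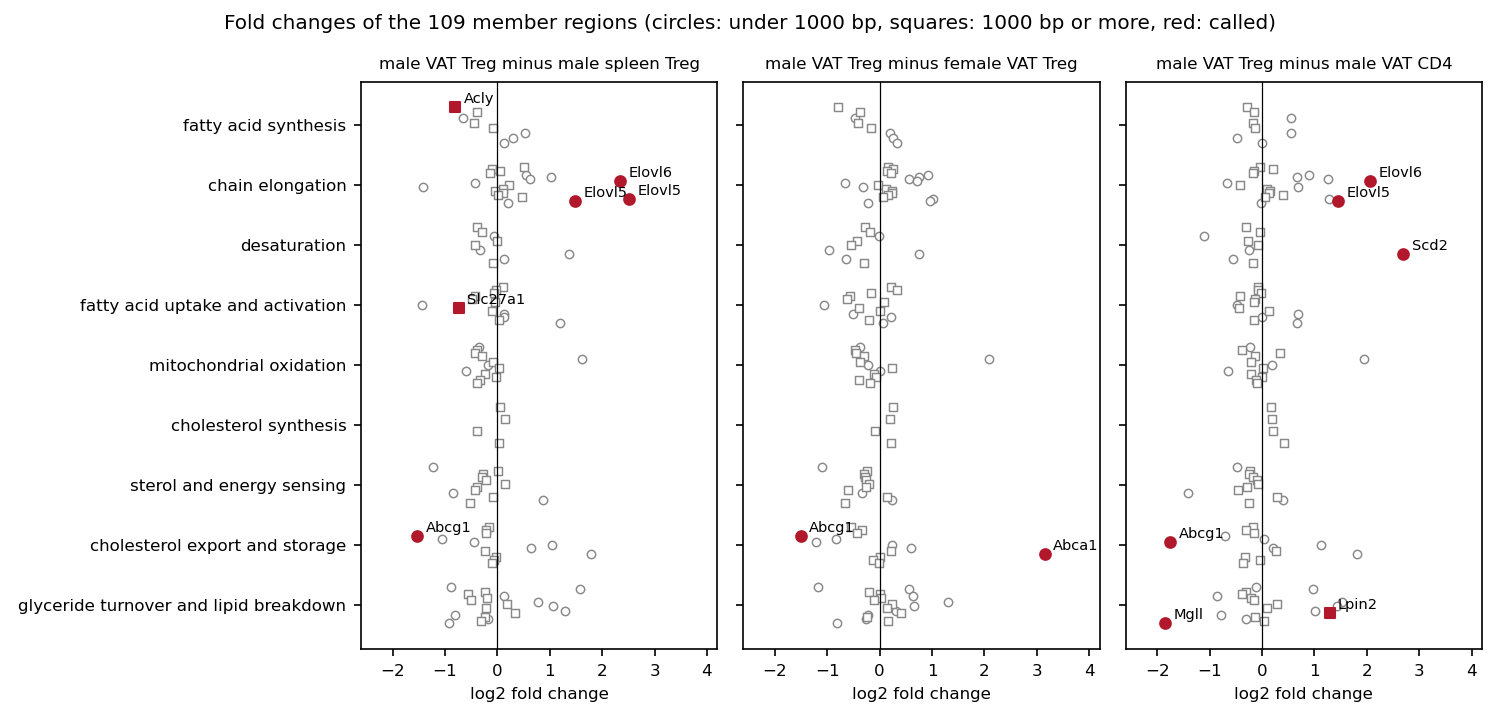
Log2 fold change (x axis) of each of the 109 regions, by the role of its gene, in the 3 comparisons. Each point is a region, circles are under 1000 bp, squares are 1000 bp or more, and red marks a call. Called points carry gene names: 6 stand out against spleen, 2 against females and 6 against CD4 cells.

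The short and the long regions gave different pictures. Short regions made up 39.4% of the regions here and 35.8% of all tested, and 8 of the 11 called regions were short. Of the 43 short regions, 3 were called higher and 1 lower against spleen (10.2% and 1.07% of all short regions), 1 and 1 against females (4.68% and 0.733%), and 3 and 2 against CD4 cells (10.3% and 3.73%). Of the 66 long regions, 0 were called higher and 2 lower against spleen (1.54% and 2.66% of all long regions), 0 and 0 against females (0.572% and 1.48%), and 1 and 0 against CD4 cells (2.35% and 1.82%). The 66 long regions lay a little below 0: their median log2 fold change was -0.15 against spleen, -0.14 against females and -0.13 against CD4 cells, beside -0.03, -0.01 and -0.07 over all long regions. Below 0 were 49, 41 and 47 of the 66. Above 0 were 17, 25 and 19 of them, where 45.2%, 47.9% and 39.5% of all long regions lay above 0. These medians are descriptions, and scaling on short regions moved the median of all 109 from -0.09 to -0.26 against spleen, from -0.10 to -0.18 against females and from -0.09 to -0.34 against CD4 cells.

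At the starts of the genes few differences passed the test. Of the 28 regions over a start, 1 was called in any comparison, that of Slc27a1, lower than in spleen. Their log2 fold changes ran from -0.74 to 0.51 against spleen, from -0.66 to 0.33 against females and from -0.44 to 0.29 against CD4 cells, while the other regions reached from -1.85 to 3.15 over the 3 comparisons. Levels differed more between genes than between groups. Per kb of region and averaged over groups, the long start regions of Acsl1, Insig1 and Hmgcs1 held 14.7, 12.7 and 12.5 CPM per kb, and those of Scap, Slc27a4 and Srebf1 held 3.64, 3.72 and 3.92. A second region over a start of Srebf1 held 4.64 to 5.57 CPM per kb in the 4 groups. The region over the start of Acadvl is 160 bp long and held 25.7 CPM per kb, and is not set beside the long ones because of its width.

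**Figure D2:**
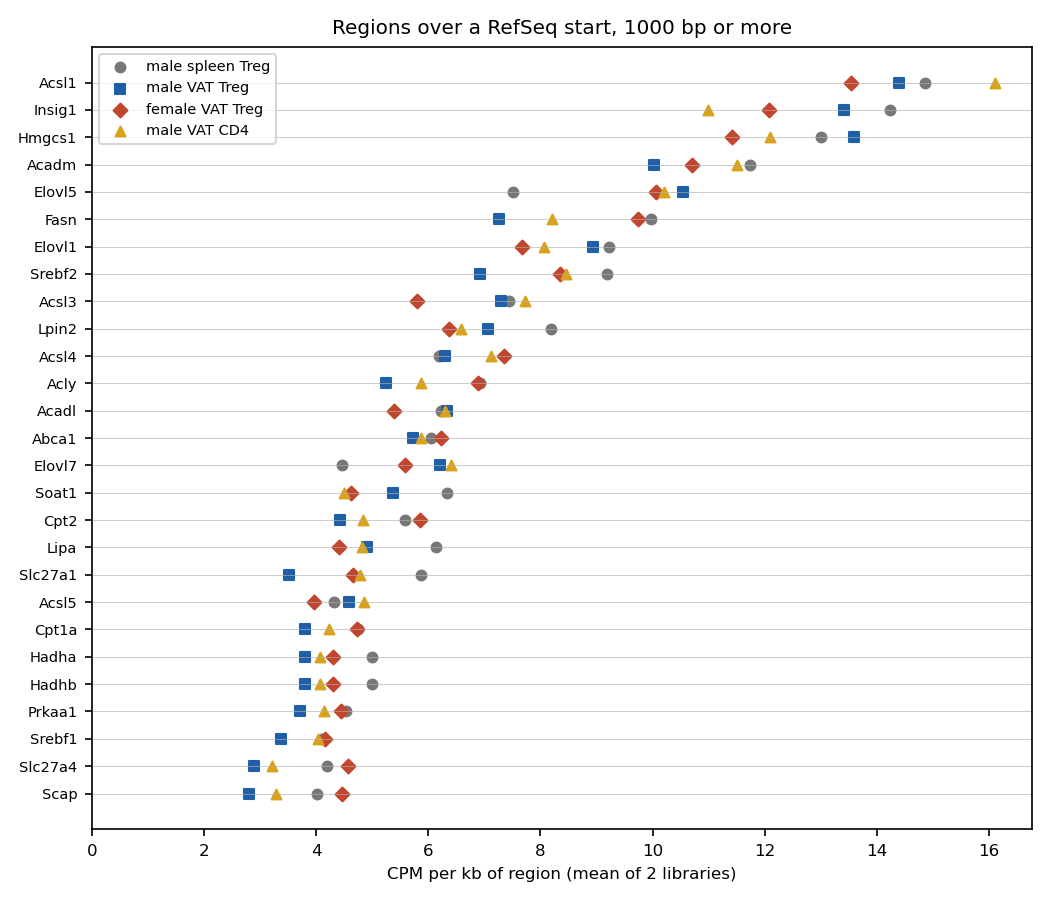
CPM per kb (x axis) of the regions of 1000 bp or more over a RefSeq start, 1 row per gene, with a marker for the mean of 2 libraries in each group. Hadha and Hadhb share 1 region, and the genes run from Scap at the bottom to Acsl1 at the top.

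The elongases held 3 of the 3 regions called higher than in spleen and 2 of the 4 called higher than in CD4 cells. These are 3 and 2 of 19 elongase regions, beside 4.64% and 5.18% of all regions. All are short, and of all short regions 10.2% and 10.3% were called higher. The DESeq2 Wald test called 1 elongase region higher in each of these comparisons. Elovl6 encodes the elongase of saturated and monounsaturated chains, and its region chr3:129588684-129589069, 56.3 kb inside the gene, was more open in male VAT Tregs than in spleen Tregs and CD4 cells. Its CPM were 14.5 and 8.42 in male VAT Tregs, 7.48 and 6.57 in those of females, 1.82 and 2.57 in spleen Tregs and 3.85 and 1.88 in CD4 cells. Both male VAT Treg libraries lay above all others, and the female libraries lay between them and the spleen and CD4 libraries. Against spleen the log2 fold change was 2.35 ± 0.30 (adjusted p = 4.069e-11) and 2.07 ± 0.33 against CD4 cells (adjusted p = 2.034e-07). Both calls were kept under every alternative run. Against females it was 0.72 ± 0.27 (adjusted p = 0.140), which did not pass.

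The other 9 regions of Elovl6 were not called in any comparison. The region nearest the start, which begins 0.763 kb inside the gene, held 47.3 and 48.1 CPM in male VAT Tregs, 45.0 and 46.8 in spleen Tregs, 37.0 and 49.1 in female libraries and 51.2 and 55.4 in CD4 cells. Its log2 fold changes were 0.05, 0.15 and -0.16 against spleen, females and CD4 cells. A neighbour of the called region, chr3:129590965-129591059, lies 58.6 kb inside and did not follow it, with 1.65 and 1.39 CPM in male VAT Tregs and 1.94 and 2.15 in spleen Tregs. The region furthest inside, 89.1 kb from the start, had 1.27 and 0.853 CPM in male VAT Tregs and 3.88 and 2.15 in spleen Tregs (-1.42 ± 0.56, adjusted p = 0.110).

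Elovl5 encodes the elongase of polyunsaturated chains and had 2 called regions inside the gene. The region chr9:77954568-77954803 held 5.83 and 5.76 CPM in male VAT Tregs, 2.99 and 2.93 in those of females, 3.40 and 1.13 in spleen Tregs and 1.35 and 2.74 in CD4 cells. The male VAT Treg libraries lay above all 6 others. The log2 fold change was 1.48 ± 0.39 against spleen (adjusted p = 0.006197) and 1.45 ± 0.43 against CD4 cells (adjusted p = 0.0148), and against females 0.96 ± 0.38 (adjusted p = 0.174). Without spleen replicate 2 the value against spleen was 0.77 with an adjusted p of 0.434. Against CD4 cells the adjusted p was 0.276 without CD4 replicate 1, 0.0832 without male VAT Treg replicate 1 and 0.0917 when scaled on short regions, and the DESeq2 Wald test gave 0.107 and 0.114 for these comparisons.

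The region chr9:77942231-77942312 of Elovl5 is 81 bp long and thinly covered, with 32 and 11 counts in male VAT Tregs against 2 and 5 in spleen Tregs. Its CPM were 2.03 and 1.17 against 0.243 and 0.299, with 0.898 and 0.704 in female libraries and 0.770 and 0.577 in CD4 cells. The log2 fold change against spleen was 2.51 ± 0.81 (adjusted p = 0.0352). That call was lost in 11 of the 12 alternatives that could test it, at adjusted p up to 0.167, and without male VAT Treg replicate 1 the region could not be tested. The start region of Elovl5 held 48.6 and 37.8 CPM in male VAT Tregs and 26.8 and 34.7 in spleen Tregs (0.48 ± 0.18, adjusted p = 0.0879). Female libraries held 42.0 and 40.4 there and CD4 cells 35.6 and 47.9, with log2 fold changes of 0.07 and 0.05 against these groups.

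**Figure D3:**
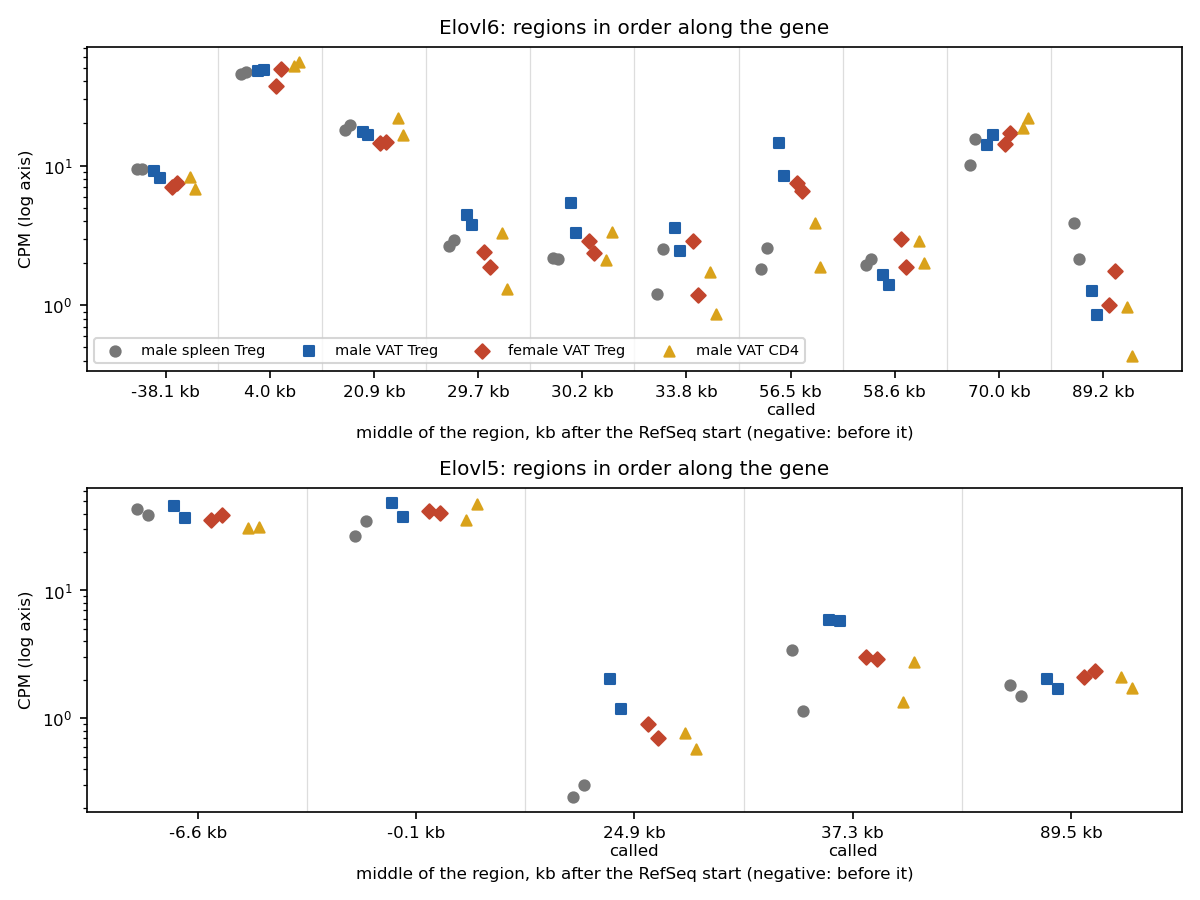
CPM on a log axis (y) of each region of Elovl6 (top) and Elovl5 (bottom) in the 8 libraries, ordered by the distance of the region's middle from the RefSeq start in kb (x axis, not to scale). The Elovl6 region 56.5 kb after the start separates male VAT Tregs from spleen Tregs and CD4 cells, and no other region of Elovl6 was called.

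Elovl1, which makes very long saturated chains, and Elovl7 had no called region. The 3 regions of Elovl1 were within -0.04 and 0.23 on the log2 scale in every comparison. The start region of Elovl7 held 21.6 and 18.98 CPM in male VAT Tregs against 17.6 and 11.5 in spleen Tregs (0.51 ± 0.21, adjusted p = 0.121). Female libraries held 20.3 and 16.2 there and CD4 cells 23.1 and 18.8, with log2 fold changes of 0.16 and -0.03 against these groups. Over all 19 elongase regions the median log2 fold changes were 0.21, 0.22 and 0.15 against spleen, females and CD4 cells, beside -0.01, 0.01 and -0.02 over all regions tested.

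Fatty acid synthesis had 1 of 8 regions called lower than in spleen, where 2.09% of all regions were, and none called in the other comparisons. That region, chr11:100471875-100473676, is assigned to both Acly and Klhl11. Acly makes cytosolic acetyl-CoA from citrate, and the region lies 2.68 kb outside Acly and 54.3 kb from its start. It held 7.67 and 4.16 CPM in male VAT Tregs, 12.7 and 8.96 in spleen Tregs, 11.3 and 9.86 in female libraries and 7.13 and 7.65 in CD4 cells. It differed by -0.80 ± 0.25 from spleen (adjusted p = 0.0293) and by -0.80 ± 0.26 from females (adjusted p = 0.0579). The spleen call was lost without spleen replicate 1 (adjusted p = 0.422), without male VAT Treg replicate 2 (0.382) and with the DESeq2 Wald test (0.184).

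Fasn encodes the fatty acid synthase itself and had 1 region, over its start, with 36.5 and 23.9 CPM in male VAT Tregs. Spleen Tregs had 41.3 and 41.6, female VAT Tregs 41.3 and 39.7, and CD4 cells 32.9 and 35.3. The male VAT Treg libraries lay below both spleen and both female libraries, and the differences did not pass (-0.45 ± 0.18 against spleen, adjusted p = 0.133, and -0.41 ± 0.18 against females, adjusted p = 0.262). Acaca and Acacb encode the acetyl-CoA carboxylases of the first step, and their 4 regions stayed between -0.47 and 0.56 in all comparisons.

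The desaturases were measured at Scd1, Scd2 and Fads1, with 9 regions. Of these, 1 was called higher than in CD4 cells, where 5.18% of all regions were. The called region lies at Scd2, outside the gene (chr19:44310834-44311023), and is also listed for Gm19494. That region held 4.82 and 1.39 CPM in male VAT Tregs against 0 and 0.865 in CD4 cells. Spleen Tregs had 1.21 and 1.25 and female VAT Tregs 1.596 and 2.23. Male VAT Treg replicate 1 alone stood high, and replicate 2 lay among the spleen and female libraries. The log2 fold change against CD4 cells was 2.70 ± 0.67 (adjusted p = 0.002206), with 6 counts in the CD4 libraries together. It was 1.5 (adjusted p = 0.509) without male VAT Treg replicate 1, and the adjusted p was 0.152 without CD4 replicate 1 and 0.0508 with the DESeq2 Wald test. Fads1 had 1 region, with 11.6 and 9.38 CPM in male VAT Tregs and 12.1 to 13.9 in the other 6 libraries, and was not called.

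Fatty acid uptake and activation had 13 regions at 6 genes. Of these, 1 was called lower than in spleen, where 2.09% of all regions were, and none was called in the other comparisons. Slc27a1 encodes a fatty acid transport protein, and its region chr8:71568600-71572761 lies over the start whose upstream bases are printed above. The region is also listed for Nxnl1, Pgls and Tmem221. It held 15.1 and 14.1 CPM in male VAT Tregs, 24.9 and 24.1 in spleen Tregs, 20.8 and 18.0 in female libraries and 20.03 and 19.8 in CD4 cells. The male VAT Treg libraries were the lowest of the 8, and the spleen libraries the highest. On the log2 scale the difference was -0.74 ± 0.20 against spleen (adjusted p = 0.007869), -0.40 ± 0.21 against females (adjusted p = 0.372) and -0.44 ± 0.21 against CD4 cells (adjusted p = 0.241). The call was lost when either spleen library was left out (adjusted p = 0.0832 and 0.0763).

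Slc27a4, another transport protein, had 12.9 and 8.21 CPM at its start in male VAT Tregs against 18.0 and 15.4 in female libraries (-0.63 ± 0.22, adjusted p = 0.0933). The acyl-CoA synthetases, which trap fatty acids as CoA esters, had no called region. The start region of Acsl1 held 64.5 and 61.5 CPM in male VAT Tregs and 57.6 to 70.9 in the other libraries. Acsl4 is X-linked, and none of its 4 regions was called in any comparison, where 22.2% of X regions were called lower and 0.101% higher in males than in females. Its start region held 23.6 and 17.8 CPM in male and 24.3 and 23.9 in female libraries (-0.21 ± 0.20), beside a median of -0.59 over all X regions.

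Mitochondrial oxidation had 13 regions at 7 genes and no call in any comparison. At an unadjusted p under 0.05, 1 was higher and 1 lower against spleen, 1 higher and 2 lower against females, and 1 higher and none lower against CD4 cells. The DESeq2 Wald test called none of them either. Cpt1a encodes the carnitine transferase that admits long chains to the mitochondrion. Its short region chr19:3334173-3334298 in the gene held 2.34 and 2.24 CPM in male VAT Tregs, 0.606 and 0.836 in spleen Tregs, 0.698 and 0.352 in female libraries and 0.770 and 0.433 in CD4 cells. Both male VAT Treg libraries lay above all 6 others, yet the adjusted p was 0.0896 against females (2.08 ± 0.72), 0.134 against spleen and 0.112 against CD4 cells. At the Cpt1a start the order was different, with 22.9 and 13.8 CPM in male VAT Tregs and 18.5 to 24.8 in the others.

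The acyl-CoA dehydrogenases begin each round of oxidation, and the start regions of Acadm and Acadl were close in all groups. That of Acadm held 52.7 and 58.9 CPM in male VAT Tregs and 59.1 to 67.8 in the other libraries. The shared region of Hadha and Hadhb held 14.8 and 14.9 CPM in male VAT Tregs and 20.3 and 18.8 in spleen Tregs (-0.39 ± 0.21, adjusted p = 0.287). Cpt2, the inner membrane partner of Cpt1a, had 18.1 and 14.3 against 19.3 and 21.6 (-0.33 ± 0.20, adjusted p = 0.377).

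Cholesterol synthesis had 4 regions at Hmgcs1, Sqle and Fdft1, and none was called by edgeR or by the DESeq2 Wald test. With no adjustment, p was under 0.05 in edgeR for some: 1 was lower against spleen and 1 higher against CD4 cells. Hmgcs1 encodes the cytosolic HMG-CoA synthase, an early enzyme of the pathway. Its start region, with the sterol element match shown above, held 88.9 and 86.5 CPM in male VAT Tregs, 80.1 and 87.5 in spleen Tregs, 70.8 and 76.5 in female libraries and 77.0 and 78.9 in CD4 cells. The log2 fold changes were 0.06, 0.25 and 0.17, and no adjusted p was under 0.570. Sqle, the squalene epoxidase, had 41.6 and 30.8 CPM in male VAT Tregs and 19.6 and 33.6 in CD4 cells (0.43 ± 0.19, adjusted p = 0.188).

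The sterol and energy sensors had 12 regions at Srebf1, Srebf2, Scap, Insig1 and the AMP-activated kinase gene Prkaa1, and none was called by edgeR or by the DESeq2 Wald test. With no adjustment, p was under 0.05 in edgeR for some: 3, 3 and 2 were lower against spleen, females and CD4 cells, and none was higher. Scap, the escort of the SREBP factors, held 9.44 and 8.32 CPM over its start in male VAT Tregs. Female VAT Tregs held 11.7 and 16.7, spleen Tregs 11.3 and 14.3, and CD4 cells 8.86 and 12.0. The difference from females was -0.66 ± 0.23 (adjusted p = 0.0965). Srebf2, whose product drives cholesterol genes, was close to this at a region in the gene, chr15:82165173-82168694, with 14.1 and 8.64 CPM in male against 16.8 and 18.8 in female libraries (-0.61 ± 0.22, adjusted p = 0.0999). Insig1, which retains Scap in the endoplasmic reticulum, had 80.1 and 68.6 CPM over its start in male VAT Tregs and 78.9 and 78.7 in spleen Tregs. Female VAT Tregs had 65.8 and 68.0 there, and CD4 cells 53.4 and 68.2.

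Cholesterol export and storage had 13 regions at 3 genes, and its calls went both ways. Against spleen 0 were called higher and 1 lower, where 4.64% and 2.09% of all regions were. Against females it was 1 and 1 (2.04% and 1.21%), and against CD4 cells 0 and 1 (5.18% and 2.51%). Abcg1 exports cholesterol to high-density lipoprotein, and 2 short regions in the gene were lower in male VAT Tregs. The region chr17:31073423-31073588 held 1.14 and 1.49 CPM in male VAT Tregs, 3.27 and 4.12 in spleen Tregs, 4.29 and 3.05 in female libraries and 1.54 and 2.60 in CD4 cells. The male VAT Treg libraries were the lowest of the 8. Its difference was -1.53 ± 0.44 against spleen (adjusted p = 0.0151) and -1.51 ± 0.45 against females (adjusted p = 0.0351). Without male VAT Treg replicate 1 these calls were lost at adjusted p of 0.139 and 0.203, without spleen replicate 2 at 0.191, without female replicates 1 and 2 at 0.493 and 0.109, and with the DESeq2 Wald test at 0.0856 and 0.165.

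The Abcg1 region chr17:31077748-31077853, further on in the gene, held 1.08 and 0.853 CPM in male VAT Tregs and 2.50 and 4.04 in CD4 cells, with 1.82 and 1.02 in spleen Tregs and 2.59 and 2.00 in female libraries. The difference from CD4 cells was -1.75 ± 0.56 (adjusted p = 0.0293). It was lost without CD4 replicate 2 (0.400), without male VAT Treg replicate 1 (0.120) or 2 (0.103), without female replicate 1 (0.0511) and with the DESeq2 Wald test (0.0869). The 3 long regions of Abcg1 were lower by 0.15 to 0.55 on the log2 scale over the comparisons, with none called.

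Abca1 exports cholesterol to apolipoprotein A-I, and its short region chr4:53047291-53047372 was the region called higher in males than in females. It held 2.28 and 1.71 CPM in male VAT Tregs against 0.200 and 0.235 in female libraries, which is 36 and 16 counts against 2 and 2. Spleen Tregs had 0.727 and 0.478 and CD4 cells 0.193 and 0.865. Against females this was 3.15 ± 0.87 (adjusted p = 0.0165). The call was lost when any one of these 4 libraries was left out (adjusted p = 0.343 and 0.269 without female replicates 1 and 2, 0.178 and 0.0574 without male replicates 1 and 2) and with the DESeq2 Wald test (0.117). The start of Abca1 held 30.5 and 32.3 CPM in male and 31.6 and 36.7 in female libraries. Soat1, which esterifies cholesterol for storage, had 3 regions and no call.

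**Figure D4:**
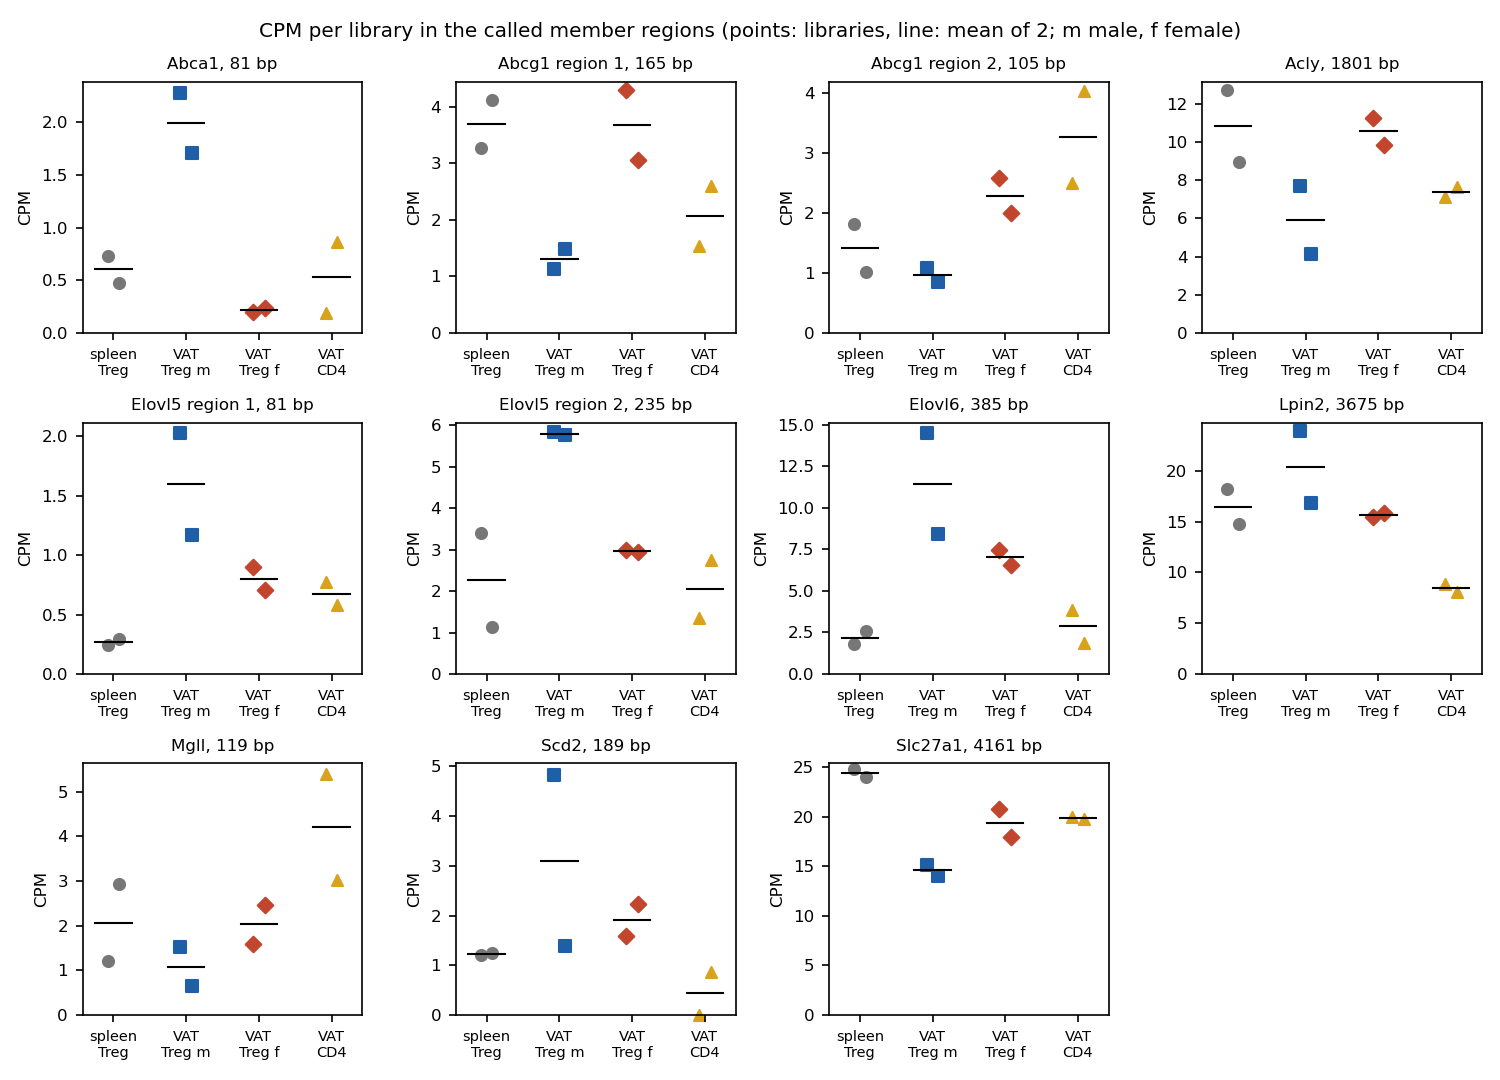
CPM (y axis, from 0) in each of the 8 libraries at the 11 called regions, with a point per library and a line at the mean of 2. Both male VAT Treg libraries are above all other libraries at Elovl6, at both Elovl5 regions and at Abca1, and below all others at Slc27a1 and Abcg1 region 1. By the mean alone, male VAT Tregs are also highest at Scd2 and Lpin2, and lowest at Acly, Abcg1 region 2 and Mgll.

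Glyceride turnover and lipid breakdown had 18 regions at Lpin1, Lpin2, Mgll and Lipa, of which 1 was called higher and 1 lower than in CD4 cells. Over all regions 5.18% were called higher and 2.51% lower in that comparison. Lpin2 encodes a phosphatidate phosphatase of triglyceride synthesis, and its long region chr17:71194083-71197758 in the gene separated Tregs from CD4 cells. It held 23.95 and 16.9 CPM in male VAT Tregs, 15.5 and 15.8 in those of females, 18.2 and 14.8 in spleen Tregs and 8.86 and 8.08 in CD4 cells. All 6 Treg libraries lay above both CD4 libraries. Against CD4 cells it differed by 1.29 ± 0.24 (adjusted p = 8.133e-06), kept under every alternative run, while the values against spleen and females were 0.34 ± 0.21 and 0.40 ± 0.21 and did not pass. The start region of Lpin2 differed by 0.09 ± 0.19 from CD4 cells.

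Mgll encodes the lipase of monoglycerides and had 1 region, chr6:88769811-88769930, in the gene. It held 5.39 and 3.03 CPM in CD4 cells, 1.21 and 2.93 in spleen Tregs, 1.596 and 2.46 in female libraries and 1.52 and 0.640 in male VAT Tregs. The CD4 libraries were the highest of the 8. The difference was -1.85 ± 0.51 (adjusted p = 0.007228), lost without CD4 replicate 1 (0.273), without male VAT Treg replicate 2 (0.0904) and with the DESeq2 Wald test (0.0576). Lpin1, a second phosphatase, had 9 regions and no call. Its region chr12:16583459-16583594 came closest, with 3.30 and 3.84 CPM in male VAT Tregs and 0.963 and 1.44 in CD4 cells (1.52 ± 0.54, adjusted p = 0.0590). Lipa, the lysosomal lipase of cholesteryl esters, had 3 regions between -0.32 and 0.16 in all comparisons.

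A further 105 genes of the same pathways, in 6 lists, served as surroundings: 92 had a region, 277 in all. Against spleen 13 of these regions were called higher and 5 lower, against females 6 and 4, and against CD4 cells 13 and 9. Over all regions the shares were 4.64% and 2.09%, 2.04% and 1.21%, and 5.18% and 2.51%. The counts over the 6 lists together are near that background. The median log2 fold changes were -0.06, -0.04 and -0.05. Against spleen, the higher calls were 4 of 41 regions in other fatty acid synthesis genes and 8 of 53 in other uptake, activation and glyceride genes. Other sterol synthesis genes had 1 of 56. The shares in the first 2 of these lists lie above 4.64%, with the calls at 3 genes in each, and no list was tested as a set. The leading called region at each of these genes was under 1000 bp, and 10.2% of all short regions were called higher than in spleen. How many regions of each list are short was not counted. Other fatty acid oxidation genes had 76 regions, none higher in any comparison, and 1, 0 and 5 lower against spleen, females and CD4 cells. Other cholesterol uptake, export and storage genes had 27 regions, none higher, and 2, 1 and 0 lower. The genes of the other AMP-activated kinase subunits and their upstream kinases had 24 regions, of which 0, 1 and 1 were higher and 1, 0 and 1 lower.

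Me1 encodes malic enzyme, a source of NADPH for fatty acid synthesis, and was called higher in all 3 comparisons. Its region chr9:86624784-86625339 in the gene held 18.3 and 13.0 CPM in male VAT Tregs, 5.09 and 3.99 in those of females, 2.79 and 2.33 in spleen Tregs and 4.04 and 2.16 in CD4 cells. Both male VAT Treg libraries lay above all 6 others, and the female libraries held more than the spleen libraries. The log2 fold change was 2.65 ± 0.29 against spleen (adjusted p = 4.308e-15), 1.79 ± 0.28 against females (adjusted p = 1.314e-07) and 2.39 ± 0.32 against CD4 cells (adjusted p = 1.303e-10), kept under every alternative run.

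At Dgat2, which makes triglycerides, a region 8.75 kb from the gene held 7.60 and 3.84 CPM in male VAT Tregs and 0.193 and 0 in CD4 cells. That is 156 counts against 1, a ratio of CPM of 75.2 with an exact 95% interval of 13.3 to 2988 that covers counting error only. Mbtps1 encodes the protease that makes the first cut in the SREBP precursors. A region 11.1 kb from it, also listed for Dnaaf1 and Hsdl1, was lower, at 2.79 and 3.20 CPM against 9.44 and 15.1 in CD4 cells (-2.06 ± 0.30, adjusted p = 1.109e-08). At Prkag2, a regulatory subunit of the AMP-activated kinase, a region in the gene had 80 counts in male and 2 in female libraries, a ratio of CPM of 29.5 (exact 95% interval 7.90 to 247.8). Ebp, an X-linked sterol isomerase gene, was lower in males over its start, at 12.0 and 8.53 against 21.1 and 21.8 CPM (-1.04 ± 0.22, adjusted p = 0.0003658). The calls given in this paragraph and at Me1 were kept under every alternative run.

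The other named calls at these genes were lost under 1 or more alternatives. Higher than in spleen were regions at Hsd17b12, which carries out a reduction step of elongation, Dgat1, Dgat2, Acss1, Agpat4 and Hsd17b7. Lower were regions at Hadh, Stard3, Tm7sf2, Abcg4 and Prkag2. For Prkag2 this is the region in the gene that was higher than in females (-1.1 ± 0.34 against spleen, adjusted p = 0.0246). In males against females, regions at Slc25a1 and Hsd17b12 were higher and regions at Mbtps2, Tm7sf2 and Abca7 were lower. Mbtps2 and Ebp are X-linked, where 22.2% of regions were called lower in males. Against CD4 cells, regions at Slc25a1, Hsd17b12, Lipe, Fabp5, Mlxipl, Mvd and Prkag2 were higher, and regions at Agpat2, Decr1, Etfb, Ppard, Ppargc1a and Tm7sf2 lower. The Prkag2 region higher than in CD4 cells is a different one, 21.7 kb outside the gene. Some regions named here are also listed for other genes, such as Etfb with Nkg7, Ppard with Def6, Mvd with Cyba, Dgat1 with Hsf1 and Tm7sf2 with Mrpl49. At Slc25a1, the citrate carrier, 45 counts in male VAT Tregs stood against 0 in CD4 cells, at least 7.23-fold higher against a floor of 3 counts over the CD4 group. Of all 38 calls at the named genes of these lists, 22 were lost without male VAT Treg replicate 1, 23 with the DESeq2 Wald test, and 7 to 15 without each of the other libraries.

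**Figure D5:**
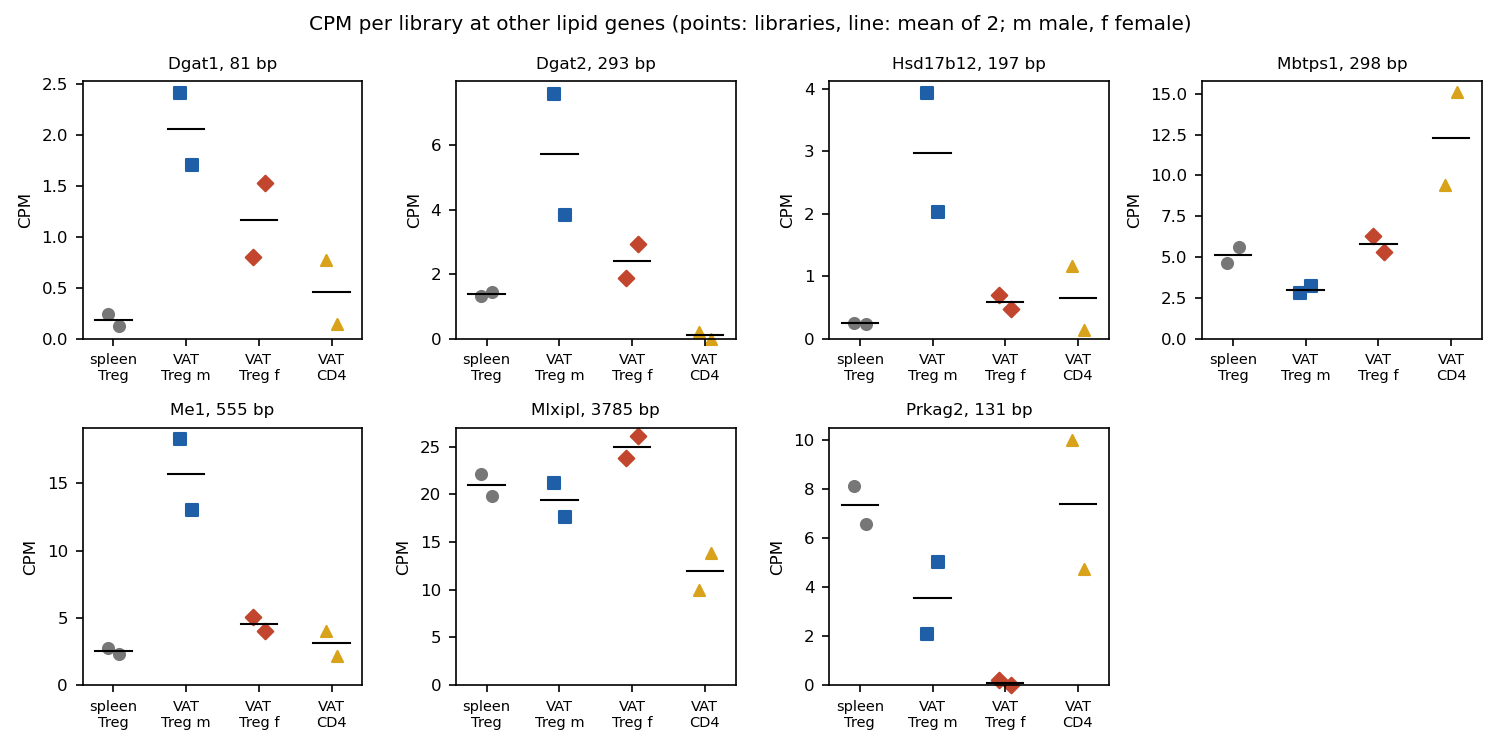
CPM (y axis, from 0) in each of the 8 libraries at a region each of 7 other lipid genes, with a point per library and a line at the mean of 2. Both male VAT Treg libraries at Me1, 18.3 and 13.0 CPM, lie above every other library, and both female libraries at Prkag2 lie near 0.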

How the data were processed

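ATAC-seq libraries of 4 sorted T cell groups, 2 each, were analysed. The authors deposited raw counts per region, without normalisation, on GRCm38 (mm10) per the labels, with HOMER 4.9, limma, Subread 1.6.2 and featureCounts among the tools in the submitters' processing notes. How regions were called, and whether starts count from 0 or 1, is not given in the sources used here. Entries were reduced to 46624 distinct regions, and 46512 on chromosomes 1 to 19, X and Y with a gene were filtered with filterByExpr. Counts were scaled by TMM (factors 0.907 to 1.06) and tested in 1 edgeR 4.0.16 fit (R 4.3.3) with 4 residual degrees of freedom, and CPM carry the same scaling. The standard error is the log2 fold change over the square root of F. Regions keep the gene the table gives them and can lie far from it. Of the distinct regions, 10331 are listed for several genes, so a call at a named gene can belong to a neighbour. Reads carry no molecular identifiers, so intervals and floors cover counting error only.

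Alternatives were DESeq2 1.42.0 size factors, TMM on regions under 1000 bp, no low-count filter, the DESeq2 Wald test, a replicate block and leaving out each library. The crossed block was chosen after seeing the data. The genes and lists were chosen with earlier results of these data known. Named were members with a called region and up to 4 genes per other list and comparison by smallest adjusted p, of which 1 gene is not reported here. The lists held other genes of fatty acid synthesis, oxidation, uptake and glycerides, of cholesterol synthesis and of its transport, of the AMP-activated kinase, and markers of adipocytes, of stromal and endothelial cells, and of Tregs, T, B, myeloid, CD8 and NK cells.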

Additional observations from a re-analysis of the deposited data

How the results depend on the processing

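Of the 14 calls at the 40 genes, 3 were kept under every alternative (Elovl6 against spleen and against CD4 cells, and Lpin2 against CD4 cells), 11 were lost under at least 1, and no call changed sign. The DESeq2 Wald test lost 10 of them, and leaving out male VAT Treg replicate 1 lost 6 of the 13 it could test. With DESeq2 size factors and without the low-count filter no count of calls moved by over 1.5 times. The causes were not tested. The DESeq2 Wald test called 1 region higher and 1 lower against spleen, 0 and 0 against females, and 2 and 0 against CD4 cells, and at the other lipid genes 7 and 0, 2 and 2, and 7 and 1. Scaling on regions under 1000 bp moved the medians to -0.26, -0.18 and -0.34, called 4 regions lower against CD4 cells, and left 7, 3 and 7 other lipid regions higher.

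Leaving out 1 library at a time gave, against spleen, 2 to 5 regions higher and 1 to 7 lower, a median of -0.20 to -0.01, and at other lipid genes 1 to 18 higher and 0 to 13 lower. Against females it gave 0 to 1 higher and 0 to 6 lower, a median of -0.17 to -0.02, and 2 to 9 and 1 to 17 at other lipid genes. Against CD4 cells it gave 2 to 7 higher and 0 to 3 lower, a median of -0.20 to 0.05, and 6 to 23 and 3 to 9. Without male VAT Treg replicate 1 the counts were 2 higher and 7 lower, 0 and 6, and 2 and 3 in the 3 comparisons, and without replicate 2 they were 5 and 2, 1 and 1, and 7 and 0. With 1 library left in a group, that library is assumed to vary like the other groups.

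The labels do not say that replicate numbers pair the libraries, and same-numbered libraries did not deviate together (r of deviations from -0.146 to 0.0666), so the replicate block was no part of the test. The block moved other lipid regions called lower from 5 to 3 against spleen and from 9 to 3 against CD4 cells, and moved no other count by over 1.5 times. The crossed pairing gave 4 regions higher and 2 lower against CD4 cells, and 12 and 9 at other lipid genes. Short regions held few counts, such as 0 and 6 in the CD4 libraries at the called Scd2 region, which limits the differences that could be detected there.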
